A study of Mus musculus with 2 samples.

Results

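The 9 genes described here, Chga, Chgb, Scg2, Scg3, Scg5, Pcsk1, Pcsk1n, Pcsk2 and Cpe, encode the cargo of endocrine secretory granules and the enzymes that cut prohormones inside them. They were chosen by symbol among the 43346 gene rows of the deposited tables, and each matched exactly 1 row. Gene expression was measured in the duodenum of C57BL/6J mice 8 weeks old, in tissue pooled from male and female littermates, as 2 libraries of polyadenylated RNA over 200 nucleotides long. Both libraries belong to 1 group with no treatment or mutation named, and they are called replicate 1 and replicate 2, as the labels number them. The labels give both the same donor entry, so whether the tissue came from separate animals is not stated, and the p-values below compare these libraries and not conditions.

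Hormones of the gut are made as long precursors that enter dense-core granules, the storage vesicles of enteroendocrine cells, which lie scattered among the enterocytes of the villus and crypt. Granins such as chromogranin A (Chga), chromogranin B (Chgb) and secretogranin II (Scg2) are acidic proteins that aggregate with the hormones in the forming granule and are themselves cut into peptides. The prohormone convertases encoded by Pcsk1 and Pcsk2 cut at pairs of basic residues, and carboxypeptidase E (Cpe) then removes the basic residues left at the new ends. Scg5 encodes the chaperone and inhibitor 7B2 of the Pcsk2 convertase, and Pcsk1n encodes proSAAS, an inhibitor of the Pcsk1 convertase. Neurons and islet cells use the same set of proteins, so none of the 9 genes belongs to enteroendocrine cells alone.

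All 9 are protein-coding genes, located here in mm10 (GRCm38) with GENCODE M21. Chga (ENSMUSG00000021194.5) lies on the plus strand of chr12:102554969-102565028, Pcsk1n (ENSMUSG00000039278.10) on the plus strand of chrX:7919822-7924410 and Cpe (ENSMUSG00000037852.7) on the minus strand of chr8:64592542-64693054. Chgb (ENSMUSG00000027350.8, chr2:132781278-132795079, plus), Pcsk2 (ENSMUSG00000027419.9, chr2:143546156-143816285, plus) and Scg5 (ENSMUSG00000023236.7, chr2:113776362-113829121, minus) share chromosome 2 without being neighbours. Scg2 (ENSMUSG00000050711.7, chr1:79434669-79440120, minus), Scg3 (ENSMUSG00000032181.6, chr9:75643189-75684056, minus) and Pcsk1 (ENSMUSG00000021587.4, chr13:75089826-75134861, plus) complete the set. Their spans run from 4589 bases for Pcsk1n to 270130 bases for Pcsk2. Exons of Pcsk1n overlap Eras on the opposite strand, which had 0 counts in both libraries. Exons of Pcsk2 overlap the antisense genes Pcsk2os1, with 5 and 0 counts in replicates 1 and 2, and Pcsk2os2, with 0 in both. The strand setting of the counting is not stated, so reads of Pcsk2 and of its antisense partners cannot be told apart. The expected counts of all 9 genes were whole numbers in both libraries to within 0.005, against 88.8% of the 15921 genes averaging 10 counts or more, as they are where no fragment is divided between genes.

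The sequence before the start of transcription showed a feature that several of the genes have in common. RefSeq promoters (GRCm38.p6) were found for 8 of the 9, all but Cpe, and the 250 bases before each start were searched on both strands, position -1 being the base before the start. The cyclic AMP response element TGACGTCA, a palindrome bound by factors of the CREB family, stood in 3 of the 8 windows, against 1.55% of 32851 RefSeq promoters. It began at position -78 in Pcsk1, at -72 in Chgb and at -68 in Scg2. Chga has the part TGACG at position -44, as a stretch reading TGACGTAA. These stretches of 30 bases are printed because they carry the element at the same place in each line, with the element in capitals (for Chga, its matching part):
Pcsk1 (chr13:75089768-75089797, plus strand): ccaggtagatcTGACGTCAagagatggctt
Chgb (chr2:132781559-132781588, plus strand): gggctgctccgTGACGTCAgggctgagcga
Scg2 (chr1:79440076-79440105, minus strand): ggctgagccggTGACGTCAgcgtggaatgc
Chga (chr12:102554886-102554915, plus strand): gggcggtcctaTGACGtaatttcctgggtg

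The stretches of Chgb and Scg2 lie inside an exon of the GENCODE M21 annotation, whose transcripts start further upstream than those of RefSeq, whereas those of Pcsk1 and Chga lie outside any exon of their gene. The shorter TGACG, which TGACGTCA holds on each strand, was present in 7 of the 8 windows (all but Pcsk1n) and in 17.8% of all promoters. The Sp1-type box GGGCGG was present in 5 of the 8 (Chga, Chgb, Scg5, Pcsk1n, Pcsk2) and in 32.7% of all promoters. The E-box CANNTG, which includes CAGCTG and CATCTG, was present in 6 of the 8 and in 66.2% of all. No member window held TATAAA (12.4% of all promoters), CATCTG (14.4%), TAATTA (4.84%) or TTCAGCACC (0.301%), the last of them a part of the element of the neuronal silencer REST. Of the other letters searched, CGCG was in 5 windows (33.8% of all promoters), CCAAT in 2 (33.8%), CAGCTG in 2 (13%), and GGACAG (18.7%) and TGTTTAC (3.17%) in 1 each. No test was made of these shares, and a match is no evidence that a factor binds there.

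Chga and Pcsk1n are shown over the full 250 bases because the first was the most abundant of the 9 and the second was the abundant member that differed most between the libraries. Capitals mark GGGCGG and TGACG:
Chga (chr12:102554691-102554940, plus strand): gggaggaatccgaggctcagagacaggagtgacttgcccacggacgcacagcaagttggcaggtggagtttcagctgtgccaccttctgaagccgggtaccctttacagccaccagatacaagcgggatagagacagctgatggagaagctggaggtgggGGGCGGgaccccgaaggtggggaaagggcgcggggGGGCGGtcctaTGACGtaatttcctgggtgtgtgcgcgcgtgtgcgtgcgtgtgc
Pcsk1n (chrX:7919572-7919821, plus strand): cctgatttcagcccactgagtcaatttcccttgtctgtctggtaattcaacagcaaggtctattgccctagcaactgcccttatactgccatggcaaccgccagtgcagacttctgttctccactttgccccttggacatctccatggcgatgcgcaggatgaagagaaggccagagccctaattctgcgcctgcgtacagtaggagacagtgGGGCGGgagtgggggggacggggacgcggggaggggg

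Of the 250 bases, G and C made up 62.4% in Chga and 57.6% in Pcsk1n, against a median of 52.4% over all promoters. Among the members this share ran from 46.8% in Pcsk1 to 82.4% in Pcsk2. Chga held 16 CG dinucleotides and Pcsk1n held 9, against a median of 6 over all promoters.

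Levels are given in TPM (transcript abundance corrected for length and for the size of the library), which can be compared between genes. The libraries held 44272208 and 44710137 fragments on genes in replicates 1 and 2, and a count of 0 allows up to 0.0678 and 0.0671 CPM (counts corrected for library size, not for length). Intervals and this floor cover counting error only. The libraries differ widely, since 10 of 10 acinar markers of the pancreas and 8 of 8 markers of gastric epithelium were higher in replicate 1. Their TPM summed to 67655 and 24731 in replicate 1, against 125 and 88.3 in replicate 2. The markers of absorptive enterocytes, the defining cells of the tissue, were present in both libraries at 12655 TPM in replicate 1, against 27115 TPM in replicate 2 for 8 genes, 6 of them higher in replicate 2. Another 1 was higher in replicate 1, where it made up most of the sum, and 1 was not called.

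Granule genes were a small part of the tissue's RNA, and 4 of the 9 made up nearly all of it. The 9 genes summed to 190.6 TPM in replicate 1, against 152.3 TPM in replicate 2 (171.5 ± 27.1, mean ± SD, n = 2, as for all SDs here). Chga, Cpe, Pcsk1n and Chgb held 98.2% of that sum in replicate 1 and 98.0% in replicate 2, and each was above 10 TPM in both libraries. The other 5, which are Scg5, Pcsk1, Scg2, Pcsk2 and Scg3, were below 2 TPM in both. In bulk tissue, fewer cells of a type and less RNA per cell cannot be told apart.

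Among the granins, Chga was the most abundant, at 119.9 TPM in replicate 1, against 59.5 TPM in replicate 2 (89.7 ± 42.7). It ranked 1034th among the 18948 genes above 0 in replicate 1 and 2160th among 18207 in replicate 2. Chgb lay at 15.8 TPM in replicate 1, against 11.1 TPM in replicate 2 (13.45 ± 3.34). Chga was thus 7.59 times Chgb in replicate 1 and 5.37 times in replicate 2, on the TPM scale. Scg2, the precursor of the neuropeptide secretoneurin, had 0.41 TPM in replicate 1, against 0.76 TPM in replicate 2. Scg3, a granin that binds Chga and cholesterol-rich granule membranes, had 0.45 TPM in replicate 1, against 0.05 TPM in replicate 2, on 38 and 4 counts. The granin transcripts therefore fell into an abundant pair and a scarce pair in both libraries.

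Of the processing enzymes, only the carboxypeptidase was abundant. Cpe lay at 33.3 TPM in replicate 1, against 40.0 TPM in replicate 2 (36.65 ± 4.71), the smallest SD relative to its mean among the 9. Pcsk1, the convertase that releases the incretin peptides of the gut, had 0.64 TPM in replicate 1, against 1.19 TPM in replicate 2, on 65 and 116 counts. Pcsk2, the convertase that yields glucagon in islet alpha cells, had 0.59 TPM in replicate 1, against 0.36 TPM in replicate 2, on 109 and 64 counts. Pcsk1 stood at 1.08 times Pcsk2 in replicate 1 and 3.31 times in replicate 2, on the TPM scale. Cpe exceeded Pcsk1 by 52.1 times in replicate 1 and 33.6 times in replicate 2.

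The inhibitors of the convertases were unequal in level. Pcsk1n lay at 18.1 TPM in replicate 1, against 38.7 TPM in replicate 2 (28.4 ± 14.6), and Scg5 at 1.41 TPM in replicate 1, against 0.68 TPM in replicate 2 (1.045 ± 0.516). Each stood above the convertase it binds in both libraries. Pcsk1n was 28.2 times Pcsk1 in replicate 1 and 32.6 times in replicate 2, while Scg5 was 2.39 times Pcsk2 in replicate 1 and 1.89 times in replicate 2. The ratios of inhibitor to convertase differed less between the libraries than the ratio of the convertases to each other did, though with 2 libraries no test of that difference was made.

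**Figure D1:**
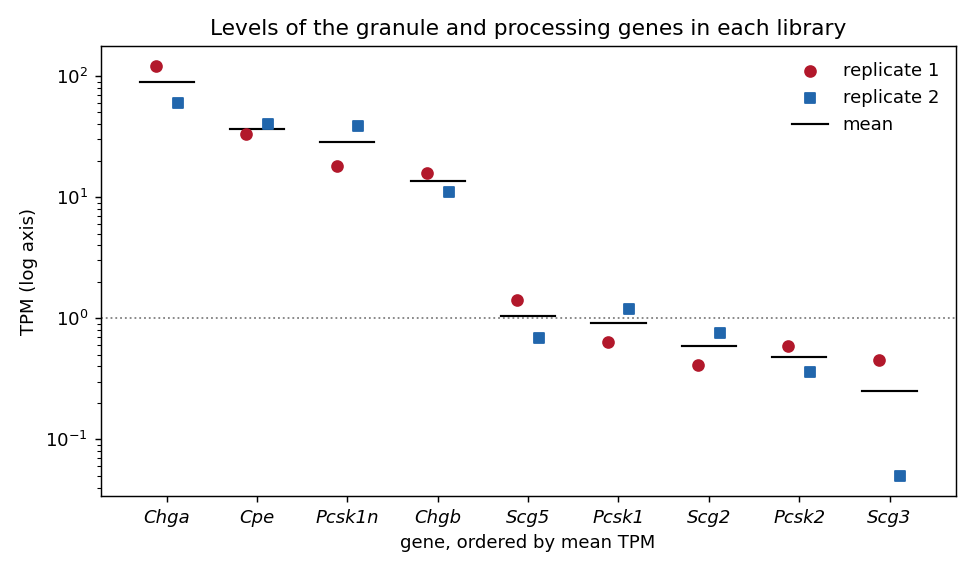
TPM of each gene (log axis) in replicate 1 (circles) and replicate 2 (squares), with a bar at the mean of the 2 libraries and a dotted line at 1 TPM. Chga, Cpe, Pcsk1n and Chgb sit between 11.1 and 119.9 TPM, and the other 5 genes between 0.05 and 1.41 TPM.

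Ordered by mean TPM, the sequence was Chga, Cpe, Pcsk1n, Chgb, Scg5, Pcsk1, Scg2, Pcsk2 and Scg3. Neighbours whose library values did not overlap were Chga and Cpe, Pcsk1n and Chgb, and Chgb and Scg5. The step from Chgb to Scg5 was the widest, a 12.9-fold difference in mean TPM. Cpe and Pcsk1n overlapped, as did each neighbouring pair from Scg5 down to Scg3, so the order within the scarce 5 is not set beyond the spread between the libraries.

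In 8 of the 9 genes 1 transcript carried all the listed TPM in both libraries. Chga, Chgb, Scg3, Cpe and Pcsk1n have only 1 transcript in the deposited annotation. Scg5, Pcsk1 and Pcsk2 each have a second, shorter one that was listed at 0. Scg2 was the exception, with the transcript of 2317 bases and 3 exons at 64.9% of its TPM in replicate 1 and 77.8% in replicate 2, and the transcript of 2515 bases and 2 exons at 35.1% in replicate 1 and 22.2% in replicate 2. The shares of Scg2 rest on 37 and 65 counts in replicates 1 and 2, and no test was made of them.

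Between the libraries, 3 of the 9 genes were higher in replicate 2 and 1 was higher in replicate 1, where a gene is called at an adjusted p under 0.05 (exact two-sided binomial test on counts with TMM library scaling, Benjamini-Hochberg over 15921 genes) and a ratio of at least 2-fold. Over all genes tested 26.1% were called, 14.6% higher in replicate 1 and 11.5% higher in replicate 2, so 4 of 9 is read against a background in which such calls are common. Among all genes with a mean count of 10 to under 100, where all 5 scarce members lie, 41.8% were called. The share was 22.1% at 100 to under 1000 counts, where no member lies, and 16.5% at 1000 to under 10000, where Chga, Cpe, Pcsk1n and Chgb lie. All 9 members passed the adjusted p alone, as did 74.9% of all genes. The median absolute log2 ratio was 0.71 for the 9 genes and 0.47 for all genes, and the biological coefficient of variation common to all genes was 0.536.

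Pcsk1n had the firmest call, at 1483 counts in replicate 1 and 3039 in replicate 2. It was 2.39-fold higher in replicate 2 (95% Clopper-Pearson interval 2.25 to 2.55; adjusted p = 1.15e-177, exact binomial test), and its interval lay wholly past the 2-fold limit. Pcsk1 was 2.08-fold higher in replicate 2 (1.52 to 2.87; adjusted p = 2.93e-06) and Scg2, with 37 and 65 counts in replicates 1 and 2, 2.05-fold higher (1.35 to 3.16; adjusted p = 0.000754), both by the same exact test. The intervals of both genes include 2-fold, and both calls ended with library totals, ERCC spike-ins or upper quartiles as the scale. Scg3 was 8.14-fold higher in replicate 1 (2.93 to 31.4; adjusted p = 9.69e-07, exact binomial test), a ratio that rests on 4 counts in replicate 2.

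The other 5 members did not reach 2-fold. Chga, on 8311 counts in replicate 1 and 3936 in replicate 2, gave 1.81 (1.74 to 1.88) for replicate 1 over replicate 2. Chgb had a ratio of 1.27 (1.18 to 1.38), Scg5 of 1.87 (1.17 to 3.07) and Pcsk2 of 1.46 (1.06 to 2.02) in the same direction. Cpe, on 2588 counts in replicate 1 and 2969 in replicate 2, gave 0.747 (0.709 to 0.788). With library totals or ERCC spike-ins as the scale, Chga and Scg5 also passed the limit, so that 3 members were higher in replicate 1 and 1 in replicate 2. Of the 15921 genes tested, 3186 and 1263 were called in the same order with totals, and 3208 and 1257 with ERCC. Those scales moved the median log2 ratio of all genes from 0.037 to 0.24 and the share of calls higher in replicate 1 from 55.9% to 71.6% (library totals) and 71.8% (ERCC). A limit of 1.5-fold called 6 of the 9 members, against 45.3% of all genes.

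**Figure D2:**
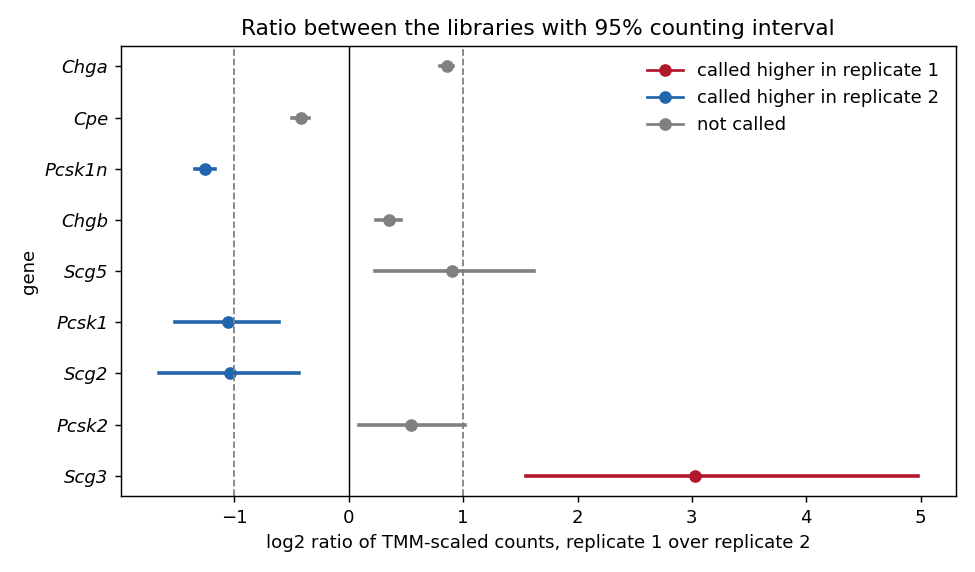
Log2 ratio of TMM-scaled counts, replicate 1 over replicate 2 (x axis), for each gene, with its 95% counting interval. Dashed lines mark the 2-fold limit. Scg3 lies to the right of it, and Pcsk1n, Pcsk1 and Scg2 to the left. The intervals of Pcsk1 and Scg2 cross it, as do those of Scg5 and Pcsk2, which were not called.

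The make-up of the granule transcripts differed between the libraries. Chga was 62.9% of the summed TPM of the 9 genes in replicate 1 and 39.1% in replicate 2. Pcsk1n was 9.48% in replicate 1 and 25.4% in replicate 2, and Cpe was 17.5% in replicate 1 and 26.2% in replicate 2. Chgb kept a like share, at 8.29% in replicate 1 and 7.28% in replicate 2. The granins and the processing genes thus did not move as a block, and members of both kinds lay on each side of a ratio of 1.

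**Figure D3:**
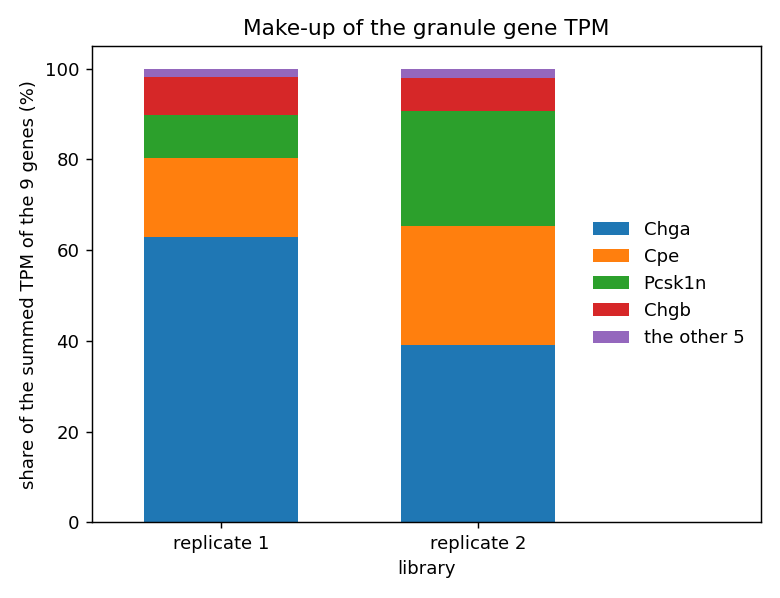
Share of each gene in the summed TPM of the 9 genes (y axis, %), in replicate 1 (left) and replicate 2 (right). Chga takes 62.9% in replicate 1 and 39.1% in replicate 2, while the 5 scarce genes together form the thin band at the top.

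Hormone transcripts were measured beside these genes, since they are the cargo. The 13 genes of the enteroendocrine hormone list summed to 1086 TPM in replicate 1, against 1648 TPM in replicate 2, and of 12 tested, 2 were called towards each library and 8 were left uncalled. The sum of the 9 granule genes was 0.176 times that of the hormones in replicate 1 and 0.0925 times in replicate 2. Gast, the antral hormone gastrin, had 231 TPM in replicate 1, against 1.13 TPM in replicate 2, and was 200.2-fold higher in replicate 1 (112 to 402). Without it the hormones summed to 855 TPM in replicate 1, against 1647 TPM in replicate 2, and the ratio was 0.223 in replicate 1 and 0.0925 in replicate 2. Sct (secretin) was 2.73-fold higher in replicate 2, at 283 TPM in replicate 1, against 748 TPM in replicate 2. Nts (neurotensin) was 49.0-fold higher in replicate 2 (8.33 to 1981) on 1 count in replicate 1 and 42 in replicate 2, and Tac1 (tachykinin) was 2.63-fold higher in replicate 1. Cck, Gip, Gcg, Sst and Pyy had ratios of 0.521, 0.504, 0.661, 0.521 and 0.879 (replicate 1 over replicate 2), and Ghrl, Cartpt and Tph1, whose product makes serotonin, had ratios of 1.74, 1.74 and 1.32, none of them called. Insl5, a hormone of the colon, had 0 counts in both libraries.

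Cells other than those of the duodenal epithelium also carry granule genes, and several of their markers moved with the libraries. Of 12 islet markers, 9 had a higher TPM in replicate 1 and 4 (Ins1, Ppy, G6pc2 and Slc30a8) had 0 counts in replicate 2. Their sum was 695 TPM in replicate 1, against 160 TPM in replicate 2, of which Ins2 made up 522 TPM in replicate 1, against 1.03 TPM in replicate 2. Slc2a2, a sugar transporter that enterocytes make as well, lay at 66.7 TPM in replicate 1, against 91.2 TPM in replicate 2, and was not called. Among 4 endocrine markers of the stomach, 4 had a higher TPM in replicate 1, with a sum of 280.5 TPM in replicate 1, against 28.1 TPM in replicate 2. Gast, given above, made up 231 TPM of the sum in replicate 1, and the sum of the other 3 was 49.4 TPM in replicate 1, against 27.0 TPM in replicate 2. Of those 3, Slc18a2 was 4.25-fold higher in replicate 1, and Ghrl (1.74) and Hdc (1.2) were not called. The part of islet and gastric endocrine cells in the values of Chga, Chgb, Scg3, Scg5 and Pcsk2, which lay towards replicate 1, was not tested.

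Markers of enteric neurons, which store peptides in granules as well, were close in sum, at 50.0 TPM in replicate 1, against 51.8 TPM in replicate 2 over 14 genes. Calls numbered 5 towards replicate 1 and 2 towards replicate 2, and 7 genes had none, with a median log2 ratio of 0.50 against 0.037 over all genes. The axonal protein Uchl1 was the highest of them (14.1 TPM in replicate 1, 21.3 TPM in replicate 2), and the synthase Nos1 was 3.13-fold higher in replicate 1. Tubb3 (10.6 TPM in replicate 1, 6.48 TPM in replicate 2) and Prph (6.98 and 6.43 TPM in the same order) were not called. Of the 14 markers, 11 had a higher TPM in replicate 1 and 3 in replicate 2. Vip, 1 of those 3, was 2.26-fold higher in replicate 2, in the direction of Scg2, Pcsk1 and Pcsk1n. The part of neurons in those values was not tested. The 4 glial markers summed to 7.22 TPM in replicate 1, against 3.89 TPM in replicate 2, with 2 of 4 called, both higher in replicate 1.

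Of 13 further convertases and trimming enzymes, all 13 reached 1 TPM in both libraries, as neither Pcsk1 nor Pcsk2 did. Among them 2 were called towards replicate 1, 0 towards replicate 2 and 11 in neither direction, with a median log2 ratio of 0.22. The background for each list count given here is the 26.1% called over all genes, 14.6% towards replicate 1 and 11.5% towards replicate 2. Furin, the convertase of the constitutive pathway, lay at 87.3 TPM in replicate 1, against 86.0 TPM in replicate 2, which is 137 and 72.3 times the level of Pcsk1. Pam, which amidates peptide ends, lay at 86.95 TPM in replicate 1, against 65.6 TPM in replicate 2. The called genes were Cpn1, 4.88-fold higher in replicate 1, and the carboxypeptidase Cpd, 2.97-fold higher. Pcsk4 (45.5 TPM in replicate 1, 33.6 in replicate 2) and Mbtps1 (39.8 and 33.1 TPM in the same order) were not called.

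Of 16 genes for other granule cargo and membrane proteins, calls went to 3 towards replicate 1, 1 towards replicate 2 and none for 12, with a median of 0.048. Vamp2, Cd63 and Vamp3, vesicle proteins that most cells make, were the highest after length scaling, with Vamp2 at 89.7 TPM in replicate 1, against 75.8 TPM in replicate 2. On scaled counts Vamp2 had a ratio of 0.79, towards replicate 2, and was not called. Ptprn2, a transmembrane protein of dense-core granules, was 3.08-fold higher in replicate 1 (14.3 TPM in replicate 1, 4.12 TPM in replicate 2), and Ica1 was 4.62-fold higher. The 1 gene higher in replicate 2 was the granin-like Vgf, at 29 counts in replicate 1 and 83 in replicate 2, named here after its values were seen.

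Genes for granule docking and fusion had 4 of 16 members called towards replicate 1, 0 towards replicate 2 and 12 in neither direction, with a median of 0.58. The share called was near the 26.1% called over all genes. Rab27b, a small GTPase that tethers granules, was 3.85-fold higher in replicate 1, at 23.4 TPM in replicate 1, against 5.49 TPM in replicate 2. Rab3d, a GTPase of exocrine granules as well, was 2.19-fold higher, at 57.5 TPM in replicate 1, against 29.6 TPM in replicate 2. Rab3a and Rph3al had ratios of 1.11 and 1.99 and were not called. Pancreatic acinar cells also use Rab3d and Rab27b, and the part of the acinar markers given above, 10 of 10 higher in replicate 1, in these ratios was not tested.

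In the list of granule biogenesis, 3 of 11 genes were called towards replicate 1, 2 towards replicate 2 and 6 in neither direction, with a median of −0.15. Hid1, a protein of the trans-Golgi network needed for dense-core granules, was 2.05-fold higher in replicate 1, at 52.7 TPM in replicate 1, against 17.4 TPM in replicate 2, and the adaptor subunit Ap1s2 was 4.59-fold higher. Clta, the clathrin light chain, and Rab2a were 2.1-fold and 2.54-fold higher in replicate 2, and both are made by most cells. Bag6 lay at 172 TPM in replicate 1, against 162 TPM in replicate 2. On scaled counts its ratio was 0.903, towards replicate 2, and it was not called.

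**Figure D4:**
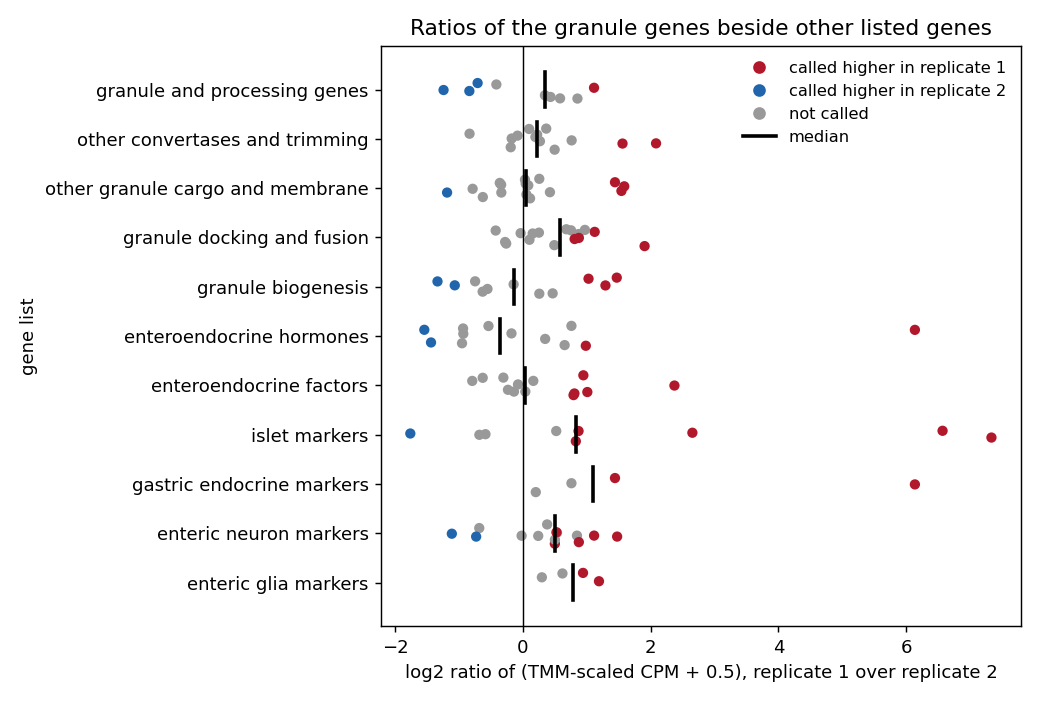
Log2 ratio of TMM-scaled CPM plus 0.5, replicate 1 over replicate 2 (x axis), of each tested gene in 11 lists, coloured by call, with a bar at each list's median. The granule genes spread on both sides of 0 around a median of 0.34, and Ins1, Ins2 and Gast lie farthest to the right.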

How the data were processed

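The deposited tables were made on mm10 with the GENCODE M4 annotation, per the text files deposited with them. The names of the aligner and quantifier were not given in the sources used here. Expected counts, as deposited, are estimated fragments per gene or transcript, not normalised, per the file headers. The authors scaled the deposited TPM values to transcript length and to 1 total per library, and the deposited FPKM values to length and to fragments, per the file headers. Isoform percent, as deposited, is the part of a gene's TPM that falls to a transcript. Deposited junction and contig lists in mm9 were not used here.

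Symbols and positions came from GENCODE M21, which named 42462 of 43346 gene identifiers. The members and all gene lists were chosen with earlier results of these data known. After rounding, expected counts of genes averaging 10 or more were scaled by TMM (edgeR 4.0.16, R 4.3.3). Spike-ins, which held 1.35% and 1.36% of the counts in replicates 1 and 2, and rows that name no gene stayed out. With 1 group, edgeR's quasi-likelihood test has no contrast. A two-sided exact binomial test on the scaled library sizes was therefore run for each gene, adjusted by Benjamini-Hochberg. It was tried on simulated counts that vary by counting error only. That trial cannot show how the test behaves under the wider variation between these libraries. A gene was called at an adjusted p under 0.05 and at least 2-fold. Ratios are replicate 1 over replicate 2. Folds come from scaled counts, and log2 ratios from CPM plus 0.5, which understates low genes. TPM is scaled otherwise and corrected for length, so TPM values and folds can differ in size. For some listed genes, such as Bag6, Furin and Vamp2, they also differ in direction. All members were named. Of each other list, the genes named were the 4 highest in mean TPM and the 2 with the largest log2 ratio among those called, and every hormone was named. Some genes outside this rule were named after their values were seen, namely Ppy, G6pc2, Slc30a8 and Vgf, and 1 gene that the rule names is not reported here. Alternatives were other scalings (library totals, upper quartile, ERCC, DESeq2 1.42.0 size factors, TMM without acinar, gastric and islet markers), no filter, posterior mean counts or TPM, FPKM, TPM rescaled without those markers, a 1.5-fold limit, a ratio of TPM plus 1 and a pseudocount of 0.1. Computations used Python 3.11.15, numpy 2.4.6, pandas 2.3.3, scipy 1.17.1, statsmodels 0.14.6 and matplotlib 3.10.9.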

Additional observations from a re-analysis of the deposited data

How the results depend on the processing

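No member's ratio changed direction under any of the 10 alternatives run for each, and Chgb, Pcsk1n, Pcsk2 and Cpe kept their side of the threshold in all of them. With library totals as the scale, the log2 ratio was 1.09 for Chga and 0.73 for Scg5 (both then called), and −0.55 for Scg2 and −0.65 for Pcsk1 (both then not called). With ERCC spike-ins as the scale the values were 1.09, 0.73, −0.54 and −0.65 in the same order. Upper quartile scaling gave −0.66 for Scg2 and −0.78 for Pcsk1, neither called. Members called higher in replicate 1 and in replicate 2 thus numbered 3 and 1 with totals or ERCC and 1 and 1 with upper quartiles. Of all 15921 genes tested, the calls in the same order were 3186 and 1263 with totals. They were 3208 and 1257 with ERCC and 2562 and 1628 with upper quartiles. With a 1.5-fold limit the members called numbered 3 and 3, with Chga (0.85) and Scg5 (0.58) called. In the same order, 3838 and 3374 of all genes were called, and 60 and 28 other listed genes. At 2-fold, the other listed genes called numbered 49 and 14, against 2324 and 1830 of the 15921 genes tested. Those 49 include all 10 acinar and all 8 gastric epithelium markers, and the lists were chosen with earlier results known. As a ratio of TPM plus 1, the log2 values fell short of 2-fold for Scg2 (−0.32), Scg3 (0.47) and Pcsk1 (−0.42), by construction, since these genes lie near or below 1 TPM.

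Posterior means gave the longer transcript of Scg5, Pcsk1 and Pcsk2 a share of 93.4%, 97.6% and 98.4%, where the listed share was 100%. Leaving out a replicate leaves 1 library and no test. The summed TPM of the members was then 152.3 to 190.6. The ratios were 1.08 to 3.31 (Pcsk1 to Pcsk2), 5.37 to 7.59 (Chga to Chgb), 1.89 to 2.39 (Scg5 to Pcsk2), 28.2 to 32.6 (Pcsk1n to Pcsk1) and 0.0925 to 0.176 (members to hormones). No paired analysis was possible because there is 1 group. Counts of 4 to 116 per library limit the ratios of Scg2, Scg3, Scg5, Pcsk1 and Pcsk2.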

Other observations

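Transcription factors of the enteroendocrine lineage were scarce, at 34.0 TPM in replicate 1, against 22.8 TPM in replicate 2 summed over 14 genes. Of 13 tested, 5 were higher in replicate 1, 0 were higher in replicate 2 and 8 were not called, with a median log2 ratio of 0.037, equal to that of all genes. Insm1 was the highest in mean TPM, at 5.68 TPM in replicate 1, against 6.32 TPM in replicate 2, and Fev lay at 3.13 TPM in replicate 1, against 3.29 TPM in replicate 2, neither called. Neurog3, which starts the endocrine programme in crypt progenitors, was 2.19-fold higher in replicate 1 (294 counts in replicate 1, 115 in replicate 2). Isl1, a factor of islets and antral endocrine cells as well, was 9.47-fold higher in replicate 1 (5.99 to 15.8), on 221 and 20 counts in replicates 1 and 2. Its TPM values lay closer together, at 4.02 TPM in replicate 1, against 0.97 TPM in replicate 2. Nkx2-2 was 2.06-fold higher in replicate 1.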
